A study of Rattus norvegicus with 20 samples.

Results

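The genes described here are the tripartite motif (Trim) family, read in blood cells of LEW and WKY rats. The members were all probe sets of the array with a single annotated gene symbol that starts with Trim followed by a digit. This gave 43 genes with 1 probe set each, among 14497 genes with such an annotation and 28826 probe sets in all. The rule itself uses no measured value, although the family was picked for description with earlier results of these data known. The RefSeq gene table of the rat lists 60 protein-coding symbols of this form, and the remaining ones were not analysed here.

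Trim proteins carry a RING domain, B-boxes and a coiled coil at their amino end, and a variable domain at the other end that chooses the partner. Most act as E3 ubiquitin ligases, the enzymes that pass ubiquitin from an E2 enzyme to a target protein. In blood cells the family is best known for antiviral sensing and for shaping the interferon response, and several members are themselves induced by interferon. Other members repair membranes or sit on the sarcomere of muscle, silence chromatin, or work on microtubules in neurons.

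One Rat Gene 1.0 ST array was hybridised per rat, with 5 male rats of 15 weeks in each of 4 groups. These were WKY rats (WKY/NCrl) on the cafeteria diet (CAF), LEW rats (LEW/Crl) on CAF, WKY rats on standard chow (STD) and LEW rats on STD. Both strains are inbred, CAF is a choice of palatable, energy-dense foods, and each diet was given for 7 weeks. The labels call the cells PBMCs, whereas the methods describe monocytes kept for their adherence to plastic.

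Values are log2 signals, so a difference of 1 is a doubling. They ran between 3.57 and 14.4 over all probe sets, and the median of an array lay between 6.83 and 6.90. Of 8 measured monocyte markers, the lowest group mean of any was 9.09. However, the 10 T-cell markers also gave signal, with no group mean under 9.91, so the arrays did not read monocytes alone. Several marker scores, each the mean over a marker list after centring each gene, differed between the strains. The score of 11 neutrophil markers lay between -0.13 and 0.91 in WKY CAF rats and between -0.95 and 0.22 in LEW CAF rats. On STD it lay between -0.11 and 1.41 in WKY rats and between -1.23 and -0.62 in LEW rats. The score of 9 NK-cell markers did not overlap between the strains. On CAF it lay between 0.16 and 0.38 in WKY rats and between -0.71 and -0.11 in LEW rats. On STD it lay between 0.24 and 0.75 in WKY rats and between -0.58 and -0.09 in LEW rats. Of these markers, 7 were called higher in WKY rats on CAF and 8 on STD (limma, adjusted p under 0.05 over all probe sets). Klrd1 went the other way and was called lower on both diets, by -1.14 and -1.15. The lowest group mean of a neutrophil marker was 5.71 and that of an NK marker was 7.06, and no background level was measured against which to set them. The score of 13 early-response genes did not overlap either, at 0.00 to 0.27 in WKY CAF rats against -0.58 to -0.23 in LEW CAF rats and at 0.39 to 0.53 in WKY STD rats against -0.50 to 0.19 in LEW STD rats. The monocyte score was lower in WKY rats without overlap on both diets. On STD it lay between -0.27 and 0.04 in WKY rats and between 0.09 and 0.26 in LEW rats. Its markers were divided: 3 of 8 were called lower in WKY rats on each diet (Ccr2, Cx3cr1 and Vcan). On STD, 2 were called higher, Itgam by 0.48 and Cd68 by 0.34. The T-cell score was lower in WKY rats without overlap on STD, at -0.23 to -0.03 against 0.10 to 0.24 in LEW rats. The part of these scores in the strain differences of the members was not tested. Finally, 4 arrays stood apart by a high heat shock score (0.79 to 1.61, the next at -0.16), namely LEW CAF rat 2, WKY STD rat 1 and LEW STD rats 2 and 3.

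Most of the family was measured at moderate levels that differed little within a group. The mean over the 20 rats was above the median of all probe sets (6.86) for 24 of the 43 members. The highest was Trim28, the corepressor of KRAB zinc finger proteins, at 11.34 in WKY CAF, 11.26 in LEW CAF, 11.25 in WKY STD and 11.29 in LEW STD rats. Trim25 and Trim8 came next, with means of 10.65 and 9.83 over all rats. Trim9, Trim69 and Trim42 were lowest, with means of 5.30, 5.33 and 5.44. The levels of different probe sets depend on their probes and give no order of abundance between genes. The median within-group SD was 0.0993 for the members and 0.103 for all probe sets, so the signals spread about as much as those of the whole array. No background level was measured, and a small SD does not show that a member was detected.

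The strains were compared first on CAF, which asks whether members differ between the genotypes under the obesogenic diet. Trim72, Trim59 and Trim55 were higher in WKY CAF than in LEW CAF rats, and no member was lower (limma, adjusted p under 0.05 over all probe sets). These 3 of 43 members are 6.98%, against a background of 7.58% of all probe sets called, 4.24% higher and 3.34% lower. The share of the family that passed was therefore close to that of the whole array. On STD, again 3 members passed, against a background of 11.3% (5.88% higher and 5.38% lower). Trim72 and Trim55 were higher in WKY STD rats, and Trim14 was lower. At an unadjusted P under 0.01 there were 4 members on each diet (background 10.3% on CAF and 13.3% on STD). Without WKY STD rat 1 the count on STD was 6, with Trim13, Trim35 and Trim52 added. Without the 4 arrays of high heat shock score, 4 members passed on each diet, with Trim14 added on CAF and Trim37 on STD, and Trim72 differed by 0.66 on CAF and 1.06 on STD, Trim55 by 0.24 and 0.31, and Trim59 by 0.52 on CAF.

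The remaining members lay near 0. The median difference between the strains was 0.01 for the members on CAF and 0.00 on STD, against -0.01 and -0.00 for all probe sets, and in each comparison 38 of 43 members differed by less than 0.2. The 95% interval stayed within a 1.5-fold change either way for 41 members on CAF (92.7% of all probe sets) and for 40 on STD (91.6%). For these members a strain difference in signal of that size or more lies outside the interval. Differences of dim members can look smaller than they are if the values hold a background near the low end. The 5 rats of each strain did not overlap for 5 members on CAF, Trim72, Trim59, Trim55, Trim3 and Trim31 (background 7.80%), and for 3 on STD, Trim72, Trim55 and Trim14 (background 8.46%).

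**Figure D1:**
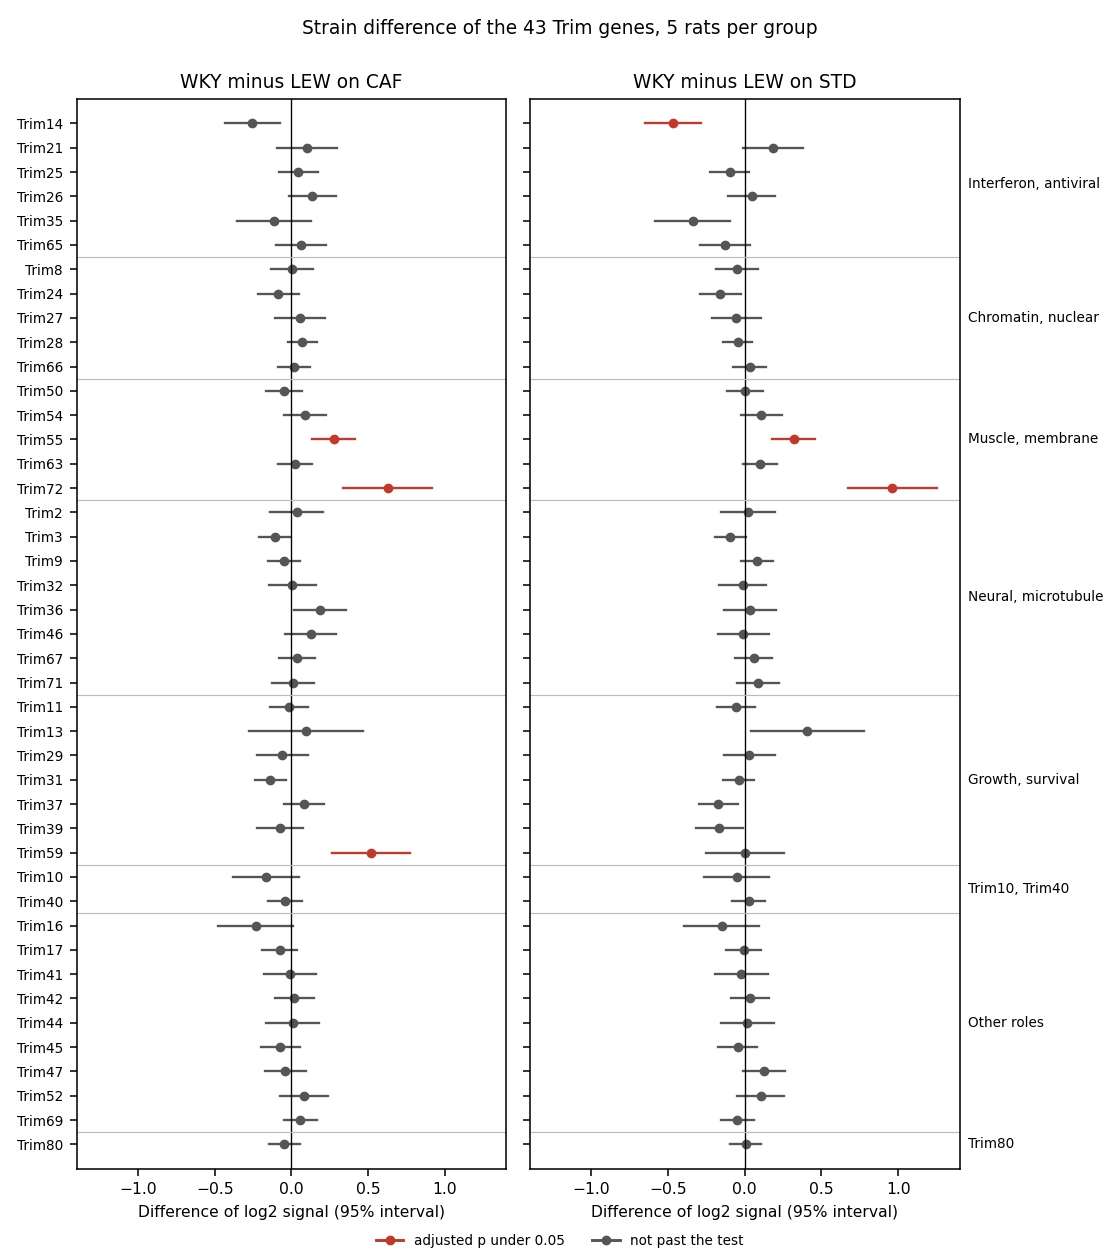
WKY minus LEW difference of log2 signal for each of the 43 Trim genes on CAF (left) and STD (right), with its 95% interval from limma, 5 rats per group, ordered by role. Trim72, Trim55 and Trim59 stand to the right of 0 on CAF, Trim72 and Trim55 to the right and Trim14 to the left on STD.

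The strain comparisons on CAF and on STD share no rats, so that their values can be set side by side. They had a Pearson r of 0.705 across the 43 members, which are not independent replicates, and 28 members had the same sign. Trim72, the largest on both diets (0.63 and 0.96), weighs heavily in this r. Neither value was set beside the same over all probe sets. All 6 members past 0.1 in size in both comparisons kept their sign.

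Trim72 had the largest strain difference among the 43 members on either diet. It encodes MG53, a protein of skeletal and heart muscle that seals breaks in the cell membrane. Probe set 10711260 read 7.65, 7.75, 7.56, 7.93 and 7.98 in WKY CAF rats, against 7.21, 7.26, 7.23, 7.01 and 7.02 in LEW CAF rats. On STD it read 7.45, 8.42, 8.14, 7.89 and 8.35 in WKY rats, against 7.33, 7.11, 6.92, 7.00 and 7.08 in LEW rats. Every WKY rat was above every LEW rat on both diets, and the WKY STD group was the most spread, with its first rat just above the highest LEW STD rat. The difference was 0.63 on CAF (SE 0.14, 95% interval 0.34 to 0.92, 1.55-fold, limma adjusted p = 0.00597) and 0.96 on STD (SE 0.14, 95% interval 0.67 to 1.25, 1.95-fold, adjusted p = 7.33e-05).

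The neutrophil markers differed between the strains in the same direction as Trim72. Within the groups only the rats at the ends of the ranges are described, and no relation was tested. In WKY STD rats the lowest Trim72 signal went with the lowest neutrophil score of the group (-0.11) and the pair of highest signals with the highest scores. In WKY CAF rats too, the lowest signal (7.56) went with the lowest score (-0.13) and the highest (7.98) with the highest score (0.91). In LEW CAF rats the highest signal (7.26) went with the highest score (0.22), but the lowest score (-0.95) went with a signal of 7.21. In LEW STD rats the highest signal, 7.33 in rat 1, went with the lowest score of all 20 rats (-1.23). Among neutrophil markers, 5 of 11 were called higher in WKY rats on CAF and 9 of 11 on STD, none lower, such as S100a8 with 1.38 (adjusted p = 0.017) and 1.97 (adjusted p = 0.000642). With the neutrophil score as a covariate, the Trim72 difference was 0.29 on CAF (adjusted p = 0.431) and 0.41 on STD (adjusted p = 0.477). With the NK score it was 0.41 (adjusted p = 0.615) and 0.68 (adjusted p = 0.509). More cells of a type and more RNA per cell cannot be told apart in these bulk samples, and the part of neutrophils or NK cells in the Trim72 difference was not tested.

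**Figure D2:**
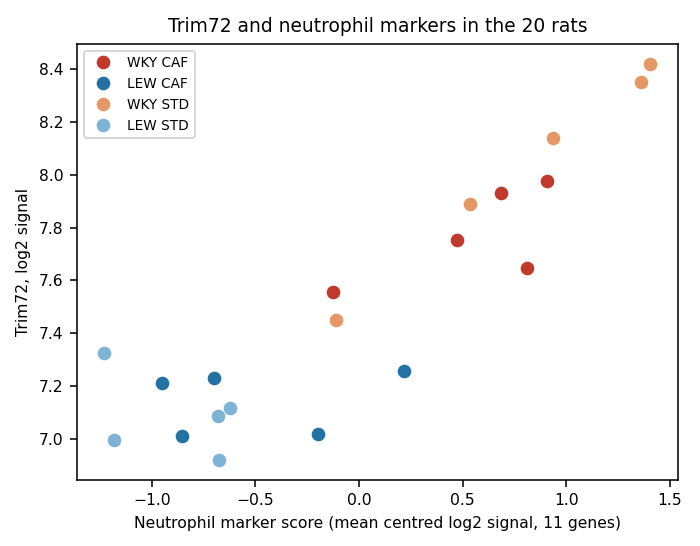
Trim72 log2 signal against the neutrophil marker score of the same array (mean of 11 genes, each centred over the 20 rats), 1 point per rat, coloured by group. WKY rats run between 7.45 and 8.42 with scores of -0.13 to 1.41, and LEW rats stay between 6.92 and 7.33 with scores of -1.23 to 0.22.

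In the RefSeq gene order of the GRCr8 assembly, Trim72 lies on chromosome 1 in a stretch with the leukocyte integrins Itgam, Itgax and Itgad. Itgad, the integrin alpha D chain, is the third gene from Trim72 on the side of Itgam, 138 kb away. It differed by nearly the same amount as Trim72, by 0.62 on CAF (adjusted p = 0.00105) and 0.92 on STD (adjusted p = 9.71e-06). Its group means were 8.67 in WKY CAF, 8.05 in LEW CAF, 8.95 in WKY STD and 8.03 in LEW STD rats. Itgam itself, a marker of monocytes and neutrophils, differed by -0.14 on CAF (adjusted p = 0.678) and was higher in WKY rats on STD by 0.48 (adjusted p = 0.0225). On the other side, the inflammasome adaptor Pycard did not pass on CAF (0.10) or on STD (0.20), nor did Prss36 (0.05 and 0.10). The sequence upstream of Trim72 is given because its strain difference was the largest among the 43 members. It is the 250 bases before the RefSeq start at chr1:192043970-192044219 on the plus strand of GRCr8:
Trim72: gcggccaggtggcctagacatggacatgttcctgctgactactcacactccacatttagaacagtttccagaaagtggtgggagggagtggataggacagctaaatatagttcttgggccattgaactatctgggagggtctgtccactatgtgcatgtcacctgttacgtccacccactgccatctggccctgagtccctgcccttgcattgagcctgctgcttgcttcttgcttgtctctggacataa
It held neither of the interferon motifs searched for below.

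Among the 5 members with roles in muscle or at membranes, Trim55 was the other to pass. It encodes MuRF2, a ligase of the sarcomere. Probe set 10814415 read 5.62, 5.69, 5.57, 5.89 and 5.84 in WKY CAF rats, against 5.45, 5.33, 5.45, 5.48 and 5.54 in LEW CAF rats. On STD it read 5.88, 5.66, 5.78, 5.60 and 5.65 in WKY rats, against 5.43, 5.44, 5.46, 5.34 and 5.29 in LEW rats. The strains did not overlap on either diet, although the whole range was narrow and near the low end of the array, where 26.1% of probe sets had a lower mean. The difference was 0.27 on CAF (SE 0.07, 95% interval 0.14 to 0.41, 1.21-fold, adjusted p = 0.0113) and 0.32 on STD (95% interval 0.18 to 0.46, 1.25-fold, adjusted p = 0.00265). With the neutrophil score as a covariate it was as large, at 0.30 and 0.36, but no longer passed (adjusted p = 0.0734 and 0.176). With the NK score it was larger, at 0.50 (adjusted p = 0.0126) on CAF and 0.62 (adjusted p = 0.021) on STD. With the monocyte score it was 0.44 (adjusted p = 0.0323) and 0.40 (adjusted p = 0.0017). The part of these cells in it was not tested.

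Of the 6 measured genes around Trim55 on chromosome 2, Cp, which encodes the copper protein ceruloplasmin, was higher in WKY rats on both diets, by 0.36 (adjusted p = 0.00349) and 0.61 (adjusted p = 1.02e-05). The phosphodiesterase gene Pde7a was higher by 0.50 on CAF (adjusted p = 0.0232) and by 0.50 on STD (adjusted p = 0.0187). Hps3, a gene of lysosome-related organelles, was higher on CAF by 0.31 (adjusted p = 0.0118) and read 0.12 on STD (adjusted p = 0.394), whereas Crh, Dnajc5b and Mtfr1 did not pass. Cp, Pde7a and Hps3 lie 310, 293 and 355 kb from Trim55. Crh lies 0.882 kb, Dnajc5b 33.9 kb and Mtfr1 387 kb from it. Over all probe sets, 7.58% passed on CAF and 11.3% on STD. The MuRF paralogues did not differ detectably. Trim54 (MuRF3) averaged 6.70 in WKY CAF and 6.61 in LEW CAF rats (difference 0.09, 95% interval -0.05 to 0.22), and Trim63 (MuRF1) averaged 5.92 and 5.90 (difference 0.02, 95% interval -0.09 to 0.13). Trim50, a ligase of gastric parietal cells, had a difference of -0.05 (95% interval -0.16 to 0.07).

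Trim59 was higher in WKY rats on CAF but not on STD. It encodes a membrane-anchored member that has been linked to proliferation of tumour cells. Probe set 10823591 read 9.57, 9.72, 9.67, 9.77 and 9.70 in WKY CAF rats, against 8.88, 9.20, 9.08, 9.54 and 9.16 in LEW CAF rats. On STD it read 10.04, 9.35, 9.58, 9.58 and 9.59 in WKY rats, against 9.56, 9.96, 9.58, 9.37 and 9.66 in LEW rats. The LEW CAF rats were the low group, 4 of them below every other rat of the series and the other, at 9.54, within the range of the STD groups. The difference between the strains was 0.52 on CAF (SE 0.12, 95% interval 0.26 to 0.77, 1.43-fold, adjusted p = 0.0102) and 0.00 on STD (95% interval -0.25 to 0.26, adjusted p = 0.995). These 2 strain differences were not shown to differ, since the interaction of 0.51 did not pass over all probe sets (SE 0.17, 95% interval 0.15 to 0.87, unadjusted P = 0.00754, adjusted p = 0.743). The score of 8 monocyte markers lay between -0.59 and -0.08 in WKY CAF rats and between 0.02 and 0.33 in LEW CAF rats, and with it as a covariate the Trim59 difference on CAF was 0.38 (adjusted p = 0.45). With the NK score it was 0.64 (adjusted p = 0.212). The part of monocytes or NK cells in it was not tested. Smc4 and Ift80, the neighbours of Trim59 on one side, read -0.00 and 0.01 on CAF and did not pass, and Kpna4 on the other side passed only on STD (0.18, adjusted p = 0.0188).

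The other members of the growth and survival group did not pass. Trim31 averaged 6.93 in WKY CAF and 7.07 in LEW CAF rats (difference -0.14, 95% interval -0.24 to -0.04, adjusted p = 0.0972), with all 5 WKY rats below all 5 LEW rats. On STD the same probe set differed by -0.04. Trim37, whose loss causes mulibrey nanism in humans, averaged 8.02 in WKY CAF and 7.94 in LEW CAF rats (0.08), whereas on STD it averaged 7.92 in WKY and 8.09 in LEW rats (-0.17, adjusted p = 0.0849). Trim13, a ligase of the endoplasmic reticulum, ranged widely within groups, with 7.45 to 8.49 in WKY STD rats against 7.27 to 7.77 in LEW STD rats (0.41, 95% interval 0.04 to 0.78, adjusted p = 0.164).

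**Figure D3:**
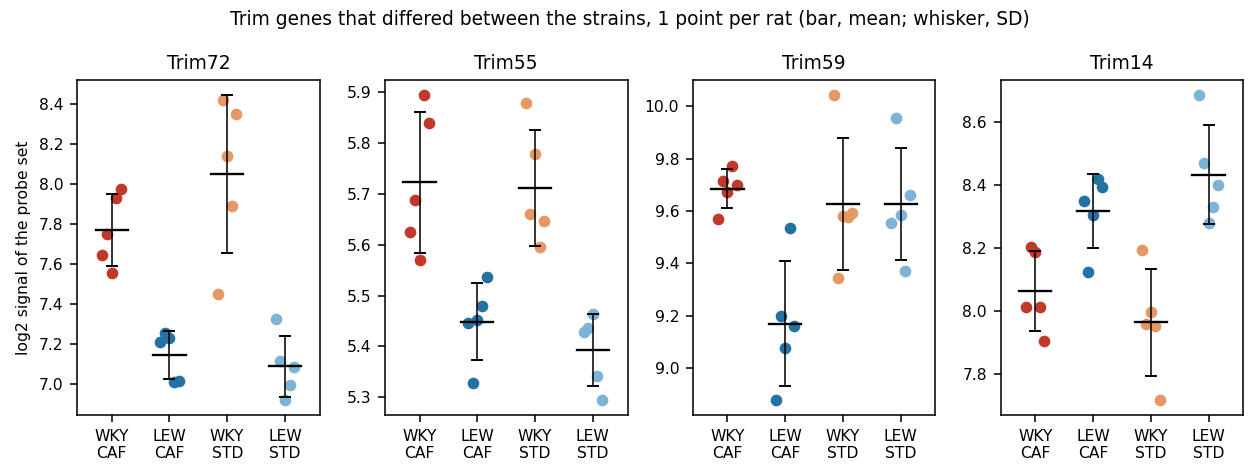
Log2 signal of Trim72, Trim55, Trim59 and Trim14 in each of the 20 rats, by group, with the group mean (bar) and SD (whisker), n = 5 per group and a separate vertical scale per gene. The 5 WKY and 5 LEW rats are apart for Trim72 and Trim55 on both diets, for Trim59 on CAF and for Trim14 on STD.

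Trim14 was the only member called lower in WKY rats. It encodes a mitochondrial adaptor without a RING domain that assists the RNA sensor pathway at Mavs and stabilises the DNA sensor cGAS. Probe set 10876594 read 8.19, 7.96, 7.997, 7.95 and 7.72 in WKY STD rats, against 8.68, 8.47, 8.28, 8.33 and 8.40 in LEW STD rats. On CAF it read 8.01, 8.20, 8.19, 8.01 and 7.91 in WKY rats, against 8.35, 8.12, 8.31, 8.42 and 8.39 in LEW rats. The groups were apart on STD, and on CAF only LEW rat 2, with 8.12, fell within the WKY range. The difference was -0.47 on STD (SE 0.09, 95% interval -0.65 to -0.29, adjusted p = 0.000998) and -0.25 on CAF (SE 0.09, 95% interval -0.44 to -0.07, adjusted p = 0.0877). LEW CAF rat 2 was 1 of the arrays of high heat shock score. Without it the difference on CAF was -0.30 (adjusted p = 0.0408), and without all 4 such arrays it was -0.30 on CAF (adjusted p = 0.0286) and -0.56 on STD (adjusted p = 0.000778). With the NK score as a covariate the difference was 0.01 on CAF (adjusted p = 0.994) and -0.12 on STD (adjusted p = 0.937), and with the neutrophil score it was -0.11 on STD (adjusted p = 0.869), and the part of these cells was not tested. None of 6 neighbouring genes, Hemgn, Anp32b, Nans, Coro2a, Tbc1d2 and Gabbr2, passed on either diet.

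The other 5 members of the interferon and antiviral group did not pass on either diet. Trim21, the cytosolic antibody receptor, averaged 8.63 in WKY CAF and 8.53 in LEW CAF rats (0.10, 95% interval -0.10 to 0.30) and 8.73 in WKY STD and 8.54 in LEW STD rats (0.19, 95% interval -0.01 to 0.38). Trim25, the ligase that activates the RNA sensor RIG-I, differed by 0.05 on CAF (95% interval -0.08 to 0.17) and by -0.10 on STD (95% interval -0.23 to 0.03). Trim26, a regulator of Irf3 and Tbk1, averaged 8.74 in WKY CAF and 8.61 in LEW CAF rats (0.14, 95% interval -0.02 to 0.29). Trim65, a ligase of the RNA sensor MDA5, differed by 0.06 on CAF and -0.13 on STD. Trim35, which acts on Irf7, differed by -0.12 on CAF and by -0.34 on STD (95% interval -0.58 to -0.10, adjusted p = 0.068), and it passed on STD without WKY STD rat 1.

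These levels stood beside strain differences in the signal of many interferon-stimulated genes. Of 24 measured interferon-stimulated genes outside the family, 15 were called higher in WKY rats on CAF and 19 on STD. None was called lower, and 9 did not pass on CAF and 5 on STD. The median difference of the 24 genes was 0.49 on CAF and 0.79 on STD. That of the 6 interferon-linked Trim genes was 0.05 and -0.11, and that of all probe sets -0.01 and -0.00. The antiviral GTPase Mx2 differed by 1.71 on CAF (adjusted p = 6.67e-07) and 2.36 on STD (adjusted p = 5.68e-09), Rtp4 by 1.50 (adjusted p = 2.84e-07) and 2.05 (adjusted p = 2.64e-09), and Oas1a, an oligoadenylate synthetase, by 1.09 (adjusted p = 1.25e-05) and 1.45 (adjusted p = 2.8e-07). No test was made of the difference between the lists. The part of the cell types whose marker scores differed between the strains was not tested for these genes either.

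The sensors and enzymes that work with antiviral Trim proteins were divided. Of 18 measured genes of RNA and DNA sensing, 7 were higher in WKY rats on CAF and 7 on STD, where Tab2 was lower (-0.15, adjusted p = 0.0481). Ifih1, which encodes MDA5, differed by 1.10 on CAF and 1.26 on STD, Irf7, the transcription factor of type I interferon genes, by 1.18 and 1.57, and Zbp1 by 0.39 and 0.36, all past the test on both diets. Mavs, the adaptor to which Trim14 binds, differed by -0.01 and 0.01. All 5 genes of the ISG15 cycle, in which the ubiquitin-like protein Isg15 is attached and removed, were higher on STD, and 4 on CAF. Isg15 differed by 1.36 on CAF (adjusted p = 0.000986) and 2.15 on STD, and its activating enzyme Uba7 by 0.27 (adjusted p = 0.0926) and 0.38 (adjusted p = 0.0123). Among 14 E2 enzymes that feed ubiquitin ligases, only Ube2l6, the E2 enzyme of Isg15, was higher on both diets (0.47, adjusted p = 0.00834, and 0.63, adjusted p = 0.000443), and Ube2d3 was higher on STD (0.13, adjusted p = 0.0348).

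**Figure D4:**
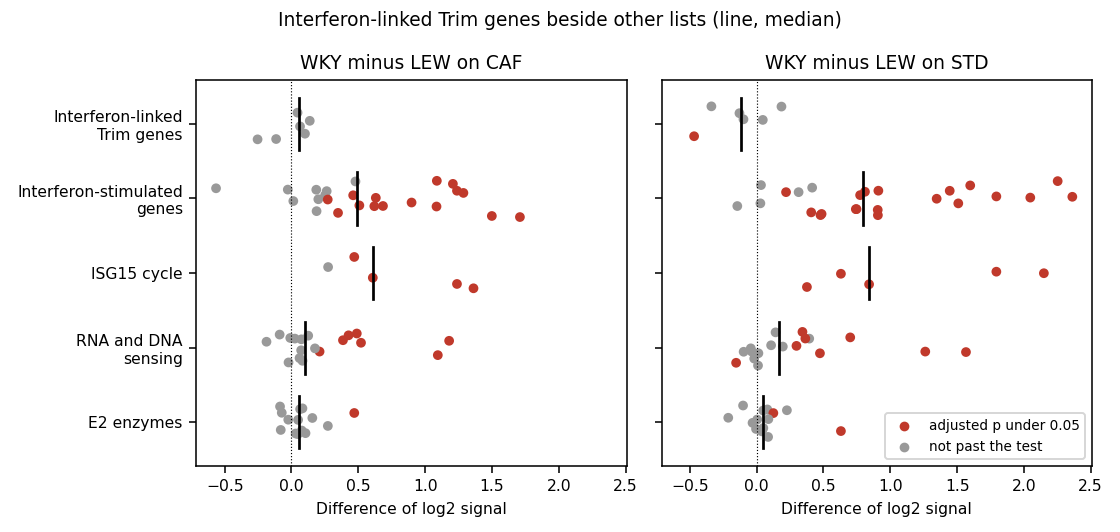
WKY minus LEW difference of log2 signal on CAF (left) and STD (right) for the 6 interferon-linked Trim genes and 4 lists of genes around them, 1 point per gene with the list median as a line; Usp18 and Ube2l6 each stand in 2 lists. The Trim genes lie between -0.25 and 0.14 on CAF and between -0.47 and 0.19 on STD, whereas interferon-stimulated genes reach 1.71 and 2.36.

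The promoters of both sets were then searched for motifs, as a feature that the choice of members did not use. A window of 300 bases, 250 before and 50 after the RefSeq start in GRCr8, was searched on both strands for the core of an interferon response element, which is GAAA repeated after any 2 bases, and for TTCNNNGAA, the core of a site for activated STAT dimers. A stretch of sequence can match both. Promoters were found for 34 of the 43 members and for 19 of 24 interferon-stimulated genes. The interferon response core was present in 3.77% of 27457 promoters, in 3 of 34 member promoters (Trim21, Trim26 and Trim40) and in 14 of 19 promoters of interferon-stimulated genes. Of those 14 genes, 8 were higher in WKY rats on CAF and 10 on STD, beside 15 and 19 of all 24. The 24 include these 14 and the genes without a promoter, so the counts do not contrast genes with and without the core. None of the 3 Trim genes passed, where 7.58% of all probe sets passed on CAF and 11.3% on STD. Whether the core goes with a strain difference was not tested. TTCNNNGAA was present in 8.68% of promoters, in 1 of 34 member promoters (Trim31) and in 4 of 19 of the interferon-stimulated genes. The stretches around the match are given for the 3 members and for Gbp2, Eif2ak2 and Oas1a. These 3 interferon-stimulated genes were picked for the smallest P on CAF among the 14, and were higher in WKY rats on both diets. Capitals mark the match to the interferon response core on either strand, where 2 overlapping matches form a longer run, and each stretch reads in the direction of transcription. The positions are chr1:166399349-166399414 on the minus strand for Trim21, chr20:1736469-1736534 on the minus strand for Trim26, chr20:1681107-1681166 on the plus strand for Trim40, chr2:234005671-234005730 on the plus strand for Gbp2, chr6:21941113-21941172 on the plus strand for Eif2ak2 and chr12:41330400-41330465 on the plus strand for Oas1a:
Trim21: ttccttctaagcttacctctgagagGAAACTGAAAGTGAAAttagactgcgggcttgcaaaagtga
Trim26: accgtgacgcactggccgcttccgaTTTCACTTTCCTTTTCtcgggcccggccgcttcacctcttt
Trim40: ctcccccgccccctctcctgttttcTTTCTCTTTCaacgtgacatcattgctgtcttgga
Gbp2: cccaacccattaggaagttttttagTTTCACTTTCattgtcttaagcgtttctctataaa
Eif2ak2: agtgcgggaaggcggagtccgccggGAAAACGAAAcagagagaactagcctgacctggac
Oas1a: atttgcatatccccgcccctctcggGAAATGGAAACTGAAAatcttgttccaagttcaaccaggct
The match ended 2 bases before the start in Trim21, 6 in Eif2ak2, 21 in Gbp2 and 25 in Oas1a, but 182 in Trim26 and 191 in Trim40. Trim21 and Oas1a both carry 2 overlapping matches close to the start, and their strain differences on CAF were 0.10 and 1.09. Oas1a was picked for its small P, so its large difference follows from the choice. Other interferon-stimulated genes with the core did not pass on CAF, such as Ifi44l (-0.03), Bst2 (0.20) and Rsad2 (-0.56). A match is a run of letters and not a shown binding site.

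Within a strain, with both diets pooled, the interferon-linked members did not follow the interferon-stimulated genes across rats to a degree that passed. The score of the 24 interferon-stimulated genes was set against each of the 6 members in the 10 rats of each strain, which makes 12 relations. Pearson's r was lowest for Trim14 in LEW rats, at -0.722 (permutation p = 0.0161, adjusted 0.194), with Spearman's rho at -0.564 (permutation p = 0.0968, adjusted 0.581). It was -0.504 without the 2 rats farthest from the median score, and -0.72 in the CAF rats and -0.89 in the STD rats alone. It was highest for Trim35 in LEW rats, at 0.595 (permutation p = 0.0699, adjusted 0.328), with rho at 0.794 (permutation p = 0.00901, adjusted 0.108), r at 0.632 without the 2 farthest rats, and r at 0.809 in the CAF rats and 0.544 in the STD rats alone. None of the 12 passed after Benjamini-Hochberg adjustment.

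None of the 5 nuclear members, Trim8, Trim24, Trim27, Trim28 and Trim66, passed between the strains on either diet, and their differences lay between -0.09 and 0.07 on CAF and between -0.16 and 0.03 on STD. Trim28 differed by 0.07 on CAF (95% interval -0.02 to 0.17), Trim24, a coregulator of nuclear receptors, averaged 8.10 in WKY CAF and 8.18 in LEW CAF rats (-0.09), and Trim27 averaged 9.67 and 9.61 (0.06). Of 5 measured partners of Trim28 in gene silencing, the deacetylase gene Hdac1 was higher in WKY rats on CAF (0.18, adjusted p = 0.0228), and none passed on STD.

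None of the 8 members with roles in neurons or on microtubules passed. Trim36, a microtubule ligase, averaged 5.66 in WKY CAF and 5.48 in LEW CAF rats (0.19, adjusted p = 0.209). Trim3, a ligase of the synapse, averaged 8.08 in WKY CAF and 8.19 in LEW CAF rats (-0.11, 95% interval -0.21 to -0.01, adjusted p = 0.223) and had no overlap between the strains on CAF. Trim46, which organises microtubules at the base of the axon, averaged 6.76 and 6.64 (0.13, adjusted p = 0.456). On STD the 8 differences lay between -0.09 for Trim3 and 0.09 for Trim71.

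Trim10, known from maturing red cells, averaged 6.59 in WKY CAF and 6.76 in LEW CAF rats (-0.17, 95% interval -0.38 to 0.05, adjusted p = 0.438). Trim40, best known in the gut, averaged 6.86 and 6.90 (-0.04). The 9 members of other roles did not pass, and their differences lay between -0.23 and 0.08 on CAF and between -0.15 and 0.13 on STD. Trim16, which takes part in the removal of damaged lysosomes, averaged 6.67 in WKY CAF and 6.90 in LEW CAF rats (-0.23, adjusted p = 0.301), Trim17 averaged 5.77 and 5.85 (-0.08), and Trim45 averaged 6.20 and 6.27 (-0.07). Trim80, placed in no group, differed by -0.05 on CAF and 0.01 on STD.

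Of 5 family genes that carry other symbols, Mid1 and Mefv were measured, and they are not counted among the 43. Mid1 (TRIM18), a microtubule-bound ligase that targets the phosphatase PP2A, was lower in WKY rats by more than any of the 43 members. It read 6.04, 6.06, 6.26, 6.14 and 6.48 in WKY CAF rats, against 7.85, 7.63, 7.65, 8.02 and 7.82 in LEW CAF rats. On STD it read 6.07, 6.07, 5.69, 6.22 and 6.01 in WKY rats, against 7.57, 7.64, 7.57, 8.81 and 8.004 in LEW rats. The strains were far apart on both diets, with a difference of -1.60 on CAF (SE 0.18, adjusted p = 3.54e-06) and -1.90 on STD (adjusted p = 3.13e-07). Mid1 was read by 1 probe set, and sequence differences between the strains under its probes were not examined. Mefv (TRIM20), which encodes the inflammasome protein pyrin, differed by -0.05 on CAF (adjusted p = 0.964) and 0.23 on STD (adjusted p = 0.718).

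The diet was compared within each strain, to ask whether members respond to CAF. No member passed in WKY rats, in LEW rats, in the mean of both strains or in the interaction, where the background was 0% of the 28826 probe sets in each (limma, adjusted p under 0.05). At an unadjusted P under 0.05 there were 2 of 43 members in WKY rats (background 8.81%), 3 in LEW rats (5.46%), 2 in the mean of both (8.26%) and 2 in the interaction (5.95%). At an unadjusted P under 0.01 there were 0 members in WKY rats (background 2.64%), 1 in LEW rats (1.07%), 0 in the mean of both (2.13%) and 2 in the interaction (1.30%). The 95% interval stayed within 1.5-fold either way for 42 members in WKY rats (96.5% of all probe sets), for 42 in LEW rats (97.4%) and for all 43 in the mean of both strains (99.1% of all probe sets). The diet differences in WKY and LEW rats, which share no rats, had an r of -0.145 across the 43 members, and 20 members had the same sign.

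**Figure D5:**
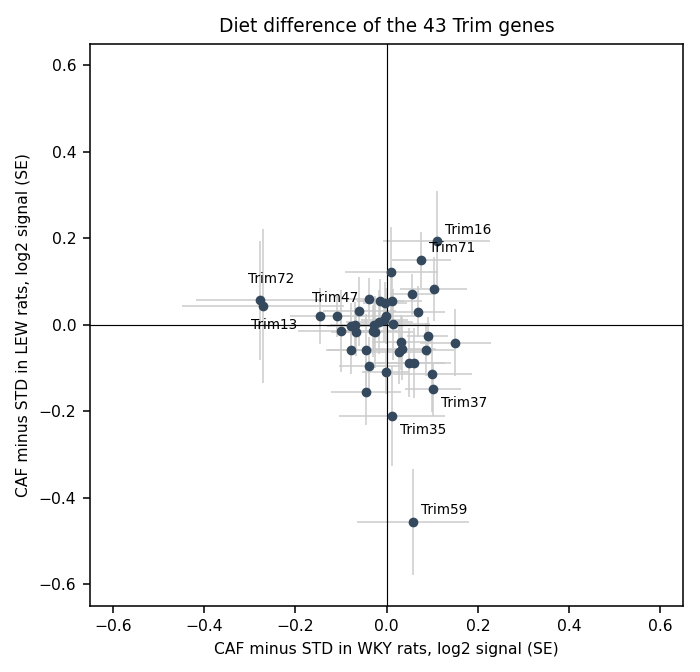
CAF minus STD difference of log2 signal for the 43 Trim genes, in WKY rats (horizontal) against LEW rats (vertical), with SE bars from limma, 5 rats per group. Most points lie within 0.2 of 0 on both axes, Trim59 is apart at -0.46 in LEW rats, and none passed the test.

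The 3 members of the smallest P in each diet comparison are given because none passed. In LEW rats Trim59, with the values above, had the smallest, with 9.17 ± 0.24 in LEW CAF against 9.63 ± 0.21 in LEW STD rats (SD, n = 5 each), a difference of -0.46 (95% interval -0.71 to -0.20, limma unadjusted P = 0.00133, adjusted p = 0.817). In WKY rats it averaged 9.69 ± 0.08 on CAF and 9.63 ± 0.25 on STD, a difference of 0.06. Trim59 was also among the 3 of smallest P in the mean of both strains (-0.20, limma adjusted p = 0.555).

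Trim37 read 7.92, 7.85, 7.96, 7.95 and 8.02 in LEW CAF rats, against 8.20, 7.91, 8.07, 8.07 and 8.20 in LEW STD rats. In WKY rats it read 7.82, 8.05, 8.16, 8.05 and 8.03 on CAF, against 7.92, 7.84, 7.99, 7.97 and 7.88 on STD. The groups overlapped in both strains, with a difference of -0.15 in LEW rats (unadjusted P = 0.0256, adjusted p = 0.884), 0.10 in WKY rats and an interaction of 0.25 (unadjusted P = 0.00953, adjusted p = 0.764).

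Trim71, a stem cell RNA-binding ligase, read 6.95, 6.90, 6.94, 6.97 and 6.80 in LEW CAF rats, against 6.71, 6.71, 6.75, 6.67 and 6.96 in LEW STD rats. In WKY rats it read 6.88, 6.86, 6.96, 6.87 and 7.04 on CAF, against 6.88, 6.72, 7.06, 6.80 and 6.78 on STD. The LEW groups overlapped only through the LEW STD rat at 6.96, and the difference was 0.15 in LEW rats (adjusted p = 0.901) and 0.11 in the mean of both strains (adjusted p = 0.535).

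In WKY rats, Trim47 had the smallest P. It read 7.10, 7.01, 7.10, 7.22 and 7.03 in WKY CAF rats, against 7.13, 7.25, 7.44, 7.17 and 7.19 in WKY STD rats, which overlapped (-0.15, unadjusted P = 0.036, adjusted p = 0.526). Trim9, a neuronal ligase, read 5.24, 5.21, 5.26, 5.24 and 5.31 in WKY CAF rats, against 5.29, 5.29, 5.48, 5.34 and 5.40 in WKY STD rats (-0.11, adjusted p = 0.547). Trim72, whose values stand above, averaged 7.77 ± 0.18 in WKY CAF and 8.05 ± 0.39 in WKY STD rats (SD, n = 5 each), a difference of -0.28 (95% interval -0.57 to 0.01, limma adjusted p = 0.586).

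In the mean of both strains, Trim27, a nuclear ligase, was the remaining one. It read 9.72, 9.49, 9.74, 9.72 and 9.67 in WKY CAF rats, against 9.70, 9.71, 9.67, 9.85 and 9.65 in WKY STD rats. In LEW rats it read 9.41, 9.44, 9.61, 9.82 and 9.79 on CAF, against 9.68, 9.70, 9.73, 9.92 and 9.81 on STD. The groups overlapped in both strains (-0.10 in the mean of both, adjusted p = 0.646). In the interaction Trim28 was the remaining one, with 11.30, 11.28, 11.38, 11.41 and 11.31 in WKY CAF rats, against 11.28, 11.23, 11.16, 11.33 and 11.23 in WKY STD rats. In LEW rats it read 11.19, 11.21, 11.32, 11.37 and 11.24 on CAF, against 11.32, 11.26, 11.35, 11.27 and 11.26 on STD. Both pairs of groups overlapped, and the interaction was 0.12 (adjusted p = 0.87). The rats on CAF and on STD did not overlap for 1 member in WKY rats, Trim63 (5.89 to 5.96 on CAF against 5.97 to 6.04 on STD, -0.08, background 2.07%), and for none in LEW rats (background 0.989%).

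By position the members lie on 14 chromosomes in the RefSeq gene table, with 9 on chromosome 10, 6 on chromosome 1 and 5 each on chromosomes 2 and 20. Members at most 5 protein-coding genes apart form 3 runs, Trim31, Trim40, Trim10 and Trim26 on chromosome 20, Trim17 and Trim11 on chromosome 10, and Trim47 and Trim65 on chromosome 10. No member of a run passed in any comparison. Trim55 and Trim59 are both on chromosome 2 but in separate stretches of it.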

How the data were processed

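Blood cells of 20 male rats were profiled with 1 Rat Gene 1.0 ST array per rat. Groups were taken from the sample labels, and each array is a separate rat. The authors deposited 1 table of log2 values per probe set, made by RMA according to the methods, whereas MAS5 is named in the submitters' processing notes, so how they were summarised is not settled. If RMA was used, a background near the low end of the scale makes differences of dim probe sets look smaller. The values were used as deposited, with no filter, no further normalisation and no array left out. Depth does not apply to arrays, and precision is limited by 5 rats per group.

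Gene symbols came from the platform annotation and the RefSeq table of GRCr8. Of 15515 probe sets with a symbol, 306 carry several and were not named. Members and lists were chosen with earlier results of these data known. Named genes were members called between the strains, the 3 of smallest P in each diet comparison, the 3 highest and 3 lowest members, and up to 3 of smallest P per role. Trim35, Trim13, Trim63, Trim50 and Trim65, neighbouring genes and family genes of other symbols were named beyond this rule, after their values were seen.

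Differences were fitted over all 20 arrays at once with the limma package (3.58.1, under R 4.3.3), which gave each group its own mean (residual degrees of freedom 16, prior 3.67). P-values were adjusted over the 28826 probe sets after Benjamini and Hochberg. The script was tested on simulated data. A member passed at an adjusted p under 0.05. Intervals are at 95%. A marker score is the mean over a list of values centred over the 20 arrays. Permutation tests of correlations were two-sided, with 100000 resamples. Alternatives were the replicate number as a block, each rat left out, a filter at the median level, centring, quantile normalisation, a trend with robust fit, array weights, only the groups compared, an unadjusted P under 0.01 and marker scores as covariates. The NK and platelet scores and the fit without the arrays of high heat shock score were added after seeing the data.

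The labels do not say that a replicate number marks a shared batch, so the numbers were not taken to pair the rats. Samples that shared a number were correlated in their deviations from the group mean between -0.177 and 0.43 over 30 pairs. Of these, 9 pairs were over 0.1, the highest being LEW STD with LEW CAF for number 5 (0.43) and number 2 (0.407). Pairs of unlike number were not compared, so these values cannot decide whether the numbers mark a batch.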

Additional observations from a re-analysis of the deposited data

Results flagged for a closer look

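Of 172 sets of 5 rats (43 members in 4 groups), 10 held a rat whose gap to the nearest other rat passed Dixon's 95% critical value of 0.71 of the range, where chance gives about 1 in 20. None of these is Trim72, Trim55, Trim59 or Trim14. In WKY CAF rats, rat 2 read 6.13 for Trim2 (the other rats 5.88 to 5.91) and 9.49 for Trim27 (9.67 to 9.74). In WKY STD rats, rat 4 read 10.33 for Trim25 (10.59 to 10.69) and 6.89 for Trim54 (6.62 to 6.69), and rat 1, an array of high heat shock score, read 5.51 for Trim52 (5.89 to 6.03). In LEW CAF rats, rat 5 read 6.46 for Trim45 (6.22 to 6.23). In LEW STD rats, rat 4 read 6.47 for Trim45 (6.19 to 6.25), rat 1 read 6.24 for Trim10 (6.68 to 6.84), and rat 5 read 7.28 for Trim32 (7.15 to 7.18) and 6.96 for Trim71 (6.67 to 6.75). No diet by strain interaction of a member passed.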

How the results depend on the processing

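The strain calls depended most on marker scores used as covariates, which themselves differ between the strains. With the neutrophil score, 1 member passed on CAF (Trim59) and 0 on STD, and with the NK score 1 passed on each diet (Trim55). With the heat shock score 6 passed on STD (Trim14, Trim35, Trim37, Trim39, Trim55 and Trim72). Leaving out 1 rat at a time, the count was between 3 and 4 on CAF and between 3 and 6 on STD, with 6 without WKY STD rat 1. Trim72, Trim55 and Trim59 on CAF and Trim72, Trim55 and Trim14 on STD stayed past the threshold in all 20 of these fits. At an unadjusted P under 0.01, 1 member passed between the diets in LEW rats (Trim59) and 2 in the interaction (Trim37 and Trim59). The Trim59 difference on STD, 0.00 in the main analysis, changed sign with no call: it lay between -0.10 and 0.0853 when 1 rat was left out, and was -0.0209 after centring, -0.01 with array weights, -0.0616 with the monocyte, -0.0239 with the erythroid and -0.0832 with the platelet score, and -0.0044 without the arrays of high heat shock score. Trim14 on CAF was 0.0096 with the NK score. Why these values moved was not tested. Trim55 lies under the median level and was not tested with that filter. With the replicate number as a block, 3 members passed on CAF and 4 on STD (Trim35 added), and 0 in every diet comparison and the interaction. No member had a second probe set to try, and sequence differences between the strains under the probes were not examined. Precision is limited by 5 rats per group.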
